A study of Homo sapiens with 15 samples.

Results

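The expression of 10 genes that feed back on, or are targets of, the transcription factor NF-kB was measured in 15 RNA-seq libraries of NCI-H1975, a human lung cancer cell line that carries a mutated EGFR, the receptor of epidermal growth factor. The genes were chosen by name, with earlier results of these data known. They are 10 of the 61248 loci in the deposited table: NFKBIA, NFKBIE, TNFAIP3, NFKB1, NFKB2, RELB, ICAM1, TNFAIP2, BIRC3 and CXCL1. The libraries form 5 groups of 3. Cells received almonertinib, a drug that blocks the kinase of EGFR, or EGF, the ligand of the receptor, and both groups are set against a group named control. Cells with an siRNA against EGFR (siEGFR) are set against cells whose treatment is labelled siNC and whose library titles read NC. No further agent, allele, dose, time or medium is given in the labels for any group, and they do not say whether replicates were separate cultures, so the p-values measure only library-to-library spread, part or all of which may be technical. All 5 groups are the same single cell line, so the results are those of 1 line.

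NF-kB dimers are held in the cytoplasm by IkB proteins until kinases downstream of cytokine or growth factor receptors mark the IkB proteins for destruction. The freed dimers bind kB sites in promoters and raise the transcription of their own inhibitors and precursors, of adhesion molecules, of chemokines and of survival genes, so that the inhibitors made in this way end the response. In a second branch, the precursor encoded by NFKB2 is processed and its product pairs with RELB. Messenger RNA levels, measured here, report neither the processing nor the location of these proteins.

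The sequences upstream of NFKBIA, TNFAIP3, CXCL1 and ICAM1 are shown because they place the kB sites beside genes whose levels moved differently across the groups. RefSeq windows on GRCh38.p14, covering the 250 bases before an annotated start, were matched by symbol for 8 of the 10 genes, all but NFKBIE and RELB. Both strands were searched for the kB consensus. Capitals mark its matches, and in ICAM1 the kB-like run TGGAAATTCC, which was singled out after the sequence was seen. Each window is printed 5′ to 3′ on the gene's strand.

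NFKBIA, chr14:35404750-35404999, minus strand: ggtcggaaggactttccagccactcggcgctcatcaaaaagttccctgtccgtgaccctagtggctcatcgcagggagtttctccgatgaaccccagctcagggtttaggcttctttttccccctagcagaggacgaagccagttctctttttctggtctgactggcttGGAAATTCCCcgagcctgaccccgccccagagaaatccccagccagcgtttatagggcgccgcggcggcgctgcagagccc

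TNFAIP3, chr6:137867009-137867258, plus strand: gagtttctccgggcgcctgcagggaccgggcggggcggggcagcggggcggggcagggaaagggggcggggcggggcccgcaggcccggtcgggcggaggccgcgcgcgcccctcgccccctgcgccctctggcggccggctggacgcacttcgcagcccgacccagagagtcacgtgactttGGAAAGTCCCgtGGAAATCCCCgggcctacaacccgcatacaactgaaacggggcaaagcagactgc

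CXCL1, chr4:73869143-73869392, plus strand: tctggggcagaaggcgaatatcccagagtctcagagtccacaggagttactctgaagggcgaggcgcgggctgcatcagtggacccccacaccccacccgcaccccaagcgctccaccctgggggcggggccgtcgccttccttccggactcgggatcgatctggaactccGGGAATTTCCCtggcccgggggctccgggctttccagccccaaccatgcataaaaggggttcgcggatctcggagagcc

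ICAM1, chr19:10270870-10271119, plus strand: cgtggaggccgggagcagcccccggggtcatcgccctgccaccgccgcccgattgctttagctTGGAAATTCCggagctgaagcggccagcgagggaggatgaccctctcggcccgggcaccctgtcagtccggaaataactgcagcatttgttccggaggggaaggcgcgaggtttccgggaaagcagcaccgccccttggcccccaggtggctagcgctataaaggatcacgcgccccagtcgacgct

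The match in NFKBIA lay 81 to 72 bases before the start. TNFAIP3 held matches at 67 to 58 and at 55 to 46 bases before it. In CXCL1, overlapping matches on the plus and minus strands spanned 79 to 69 bases before the start. A match to the consensus was present in 6 of the 8 genes with a window (NFKBIA, TNFAIP3, NFKB1, NFKB2, BIRC3 and CXCL1), against 6.28% of the 27305 genes and 5.21% of the 35116 promoter windows in the same RefSeq table. TNFAIP2 had no match in its window, and ICAM1 none to the consensus. The run in ICAM1, at 187 to 178 bases before the start, occurs in 0.1% of the promoter windows. It was taken from this window and has no variable base, so that share cannot be set beside those of the consensus. These matches are letters in a reference sequence, and binding was not measured.

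The values are FPKM, fragments per kilobase of gene scaled to library depth, which can be compared between genes as levels per length. Whole reads recovered from the FPKM gave 18009882 to 34908207 reads per library. EGFR, the target of the siRNA, was at 29.9, 28.6 and 28.9 FPKM in siEGFR, against 49.5, 49.4 and 49.8 FPKM in siNC, and fell by 0.75 on the log2 scale (SE 0.11, limma adjusted p = 0.00165). It was lower with almonertinib than in control (log2 change -0.52, SE 0.11, limma adjusted p = 0.0052), and siNC held more EGFR than control (log2 change 1.00, SE 0.11, limma adjusted p = 4.9e-06). Control replicate 1 and almonertinib replicate 3 stood farthest from their own replicates, with root mean square log2 differences of 0.33 and 0.31, against 0.16 to 0.29 for the other libraries. All 7 epithelial markers averaged at least 1 FPKM in every group, but their levels differed between groups. EPCAM averaged 35.2 FPKM in siNC against 6.58 in control, KRT7 303 against 56.4 and CDH1 16.3 against 5.69. In siNC, KRT18 was at 126% of the control mean, KRT8 at 98.8%, CLDN4 at 82.1% and KRT19 at 56.8%. Of 7 leukocyte markers only CD14 averaged at least 1 FPKM in every group, while PTPRC stayed at or below 0.062 FPKM in every library. The summed leukocyte markers were 35.3 to 41.8 FPKM in almonertinib, 36.1 to 39.2 in EGF and 30.8 to 40.6 in control, against 4.02 to 5.14 in siEGFR and 7.47 to 8.10 in siNC. COL1A1, COL1A2 and PDGFRB gave the fibroblast list sums of 358 to 383 FPKM in almonertinib, 193 to 214 in EGF, 337 to 353 in control, 194 to 196 in siEGFR and 138 to 146 in siNC, and DCN was at 0 in 13 of 15 libraries. Most of that sum was COL1A2, and COL1A1 took another order, averaging 10.1 FPKM in almonertinib, 3.88 in EGF, 6.80 in control, 14.4 in siEGFR and 8.61 in siNC. Endothelial sums were 2.64 to 3.12 FPKM in almonertinib, 1.80 to 2.19 in EGF, 3.18 to 3.80 in control, 0.59 to 0.66 in siEGFR and 0.66 to 0.78 in siNC. The part of these marker genes in the results below was not tested.

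Changes were tested with limma on log2(FPKM + 1) across the 14999 genes that reached 1 FPKM in at least 3 libraries, and a gene is called at a Benjamini-Hochberg adjusted p under 0.05 over all of them. The added 1 understates the change of genes at a few FPKM. BIRC3 did not pass this filter, so 9 of the 10 genes were tested. With EGF, 5 of the 9 rose (NFKBIA, NFKBIE, TNFAIP3, RELB and ICAM1) and TNFAIP2 fell, against 49.3% of all tested genes called in that comparison (22.0% higher, 27.3% lower). The EGF and control libraries did not overlap for 6 of the 9, against 51.1% of all genes. With almonertinib, NFKBIA and NFKB2 rose and TNFAIP3, NFKB1 and CXCL1 fell, beside 30.1% of all genes called (12.1% higher, 18.0% lower). The almonertinib and control libraries were separate for 6 of the 9, against 35.2% of all genes. With siEGFR, TNFAIP3, ICAM1, NFKBIA and RELB fell relative to siNC and none rose by limma (0 of 9 higher at an unadjusted p under 0.05, and 0 by limma-voom), beside 5.46% of all genes called (2.27% higher, 3.19% lower). The siEGFR and siNC libraries were separate for 7 of the 9, against 40.5% of all genes. Their median log2 changes were -0.06 with almonertinib, 0.24 with EGF and -0.26 with siEGFR, against -0.06, -0.04 and 0.01 over all tested genes. Almonertinib and EGF share the control libraries, so their changes are not independent of each other. In bulk RNA, fewer cells of a state and less RNA per cell cannot be told apart.

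**Figure D1:**
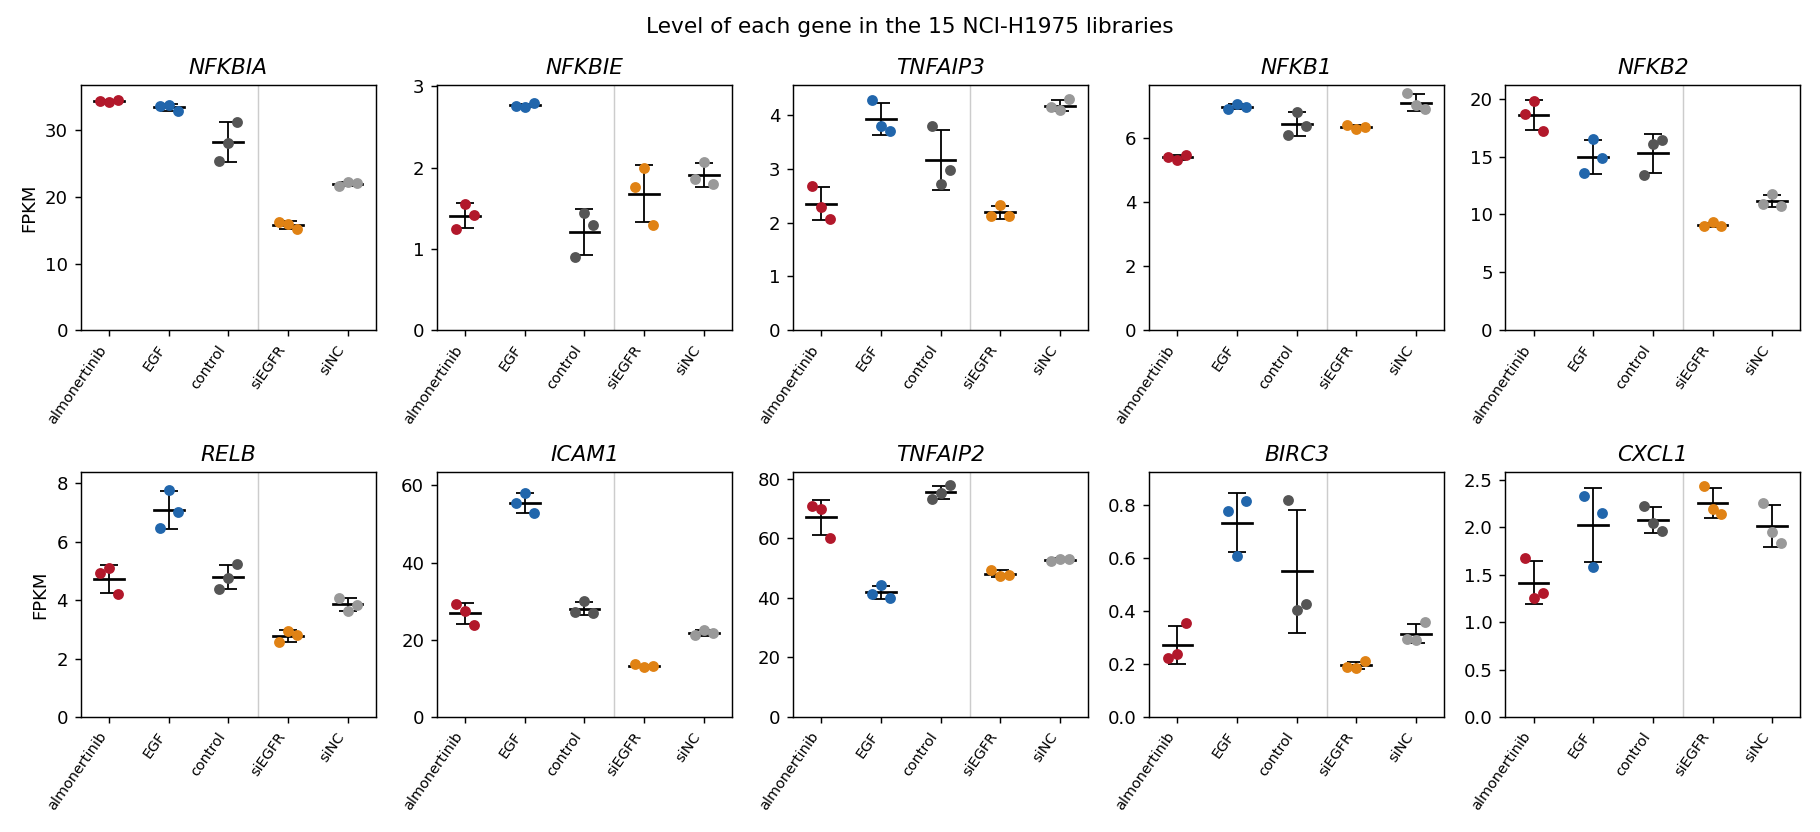
Level in FPKM of each of the 10 genes (panels, linear axes from 0) in the 3 libraries of each group (points), with the group mean and its SD (bars). ICAM1, NFKBIE and RELB are highest with EGF, and NFKB2 is highest with almonertinib. NFKBIA is nearly equal with almonertinib and EGF, at means of 34.4 and 33.5 FPKM, and lower in the other groups. NFKBIA, TNFAIP3, RELB and ICAM1 are lower in every siEGFR library than in every siNC library.

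NFKBIA (ENSG00000100906) encodes IkB-alpha, the inhibitor that is resynthesised fastest after NF-kB activation. It stood at 34.4, 34.3 and 34.5 FPKM with almonertinib, 33.7, 33.9 and 32.9 FPKM with EGF and 25.4, 28.1 and 31.3 FPKM in control. Both treated groups lay above all 3 control libraries, and the control libraries were the most spread. NFKBIA rose with almonertinib (log2 change 0.28, SE 0.06, limma adjusted p = 0.00495) and with EGF (log2 change 0.24, SE 0.06, limma adjusted p = 0.0051). The direct difference between the treated groups was 0.04 on the log2 scale, almonertinib minus EGF, and was not called (limma adjusted p = 0.61), although the libraries did not overlap. In siEGFR the gene was at 16.3, 16.0 and 15.2 FPKM, against 21.7, 22.2 and 22.1 FPKM in siNC. Every siEGFR library was below every siNC library, and NFKBIA fell by 0.45 on the log2 scale (SE 0.06, limma adjusted p = 0.00067). From high to low the group means ran almonertinib, EGF, control, siNC and siEGFR, and no neighbours in that order overlapped.

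NFKBIE (ENSG00000146232) encodes IkB-epsilon, a slower inhibitor of the same dimers, and was among the lowest of the tested genes per length. It was at 2.76, 2.75 and 2.79 FPKM with EGF, against 0.90, 1.45 and 1.29 FPKM in control. The EGF libraries were nearly equal and all above control, and the mean reached 228% of control (log2 change 0.78, SE 0.11, limma adjusted p = 4.8e-05). With almonertinib it was at 1.25, 1.55 and 1.42 FPKM, overlapping control, and was not called (log2 change 0.13, SE 0.11, limma adjusted p = 0.37). The siEGFR libraries, at 1.76, 1.99 and 1.30 FPKM, overlapped those of siNC, at 1.86, 2.08 and 1.80 FPKM, and the change of -0.12 (SE 0.11) was not called (limma adjusted p = 0.65). Below EGF, the means of siNC, siEGFR, almonertinib and control followed, each overlapping the next.

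TNFAIP3 (ENSG00000118503) encodes A20, a ubiquitin-editing enzyme that shuts off signalling upstream of the IkB kinases. Its libraries were at 2.11, 2.33 and 2.12 FPKM in siEGFR, against 4.15, 4.08 and 4.29 FPKM in siNC. All siEGFR libraries were below siNC, the mean was 52.4% of siNC, and the gene fell by 0.70 on the log2 scale (SE 0.09, limma adjusted p = 0.00058). With almonertinib it was at 2.69, 2.29 and 2.07 FPKM, with EGF at 4.27, 3.79 and 3.71 FPKM, and in control at 3.79, 2.72 and 2.97 FPKM. Every almonertinib library was below every control library, while EGF and control overlapped. TNFAIP3 fell by 0.31 with almonertinib (SE 0.09, limma adjusted p = 0.025) and rose by 0.25 with EGF (SE 0.09, limma adjusted p = 0.039). The almonertinib change was -0.20 without control replicate 1 (limma adjusted p = 0.10), -0.14 without both that library and almonertinib replicate 3 (limma adjusted p = 0.19), and not called without almonertinib replicate 2 or 3 (0.073 and 0.066). The EGF call was lost without control replicate 2 or 3 or any 1 EGF library (limma adjusted p = 0.053 to 0.15). It was past the threshold in 6 of 14 alternatives. Of the 5051 exon bases of TNFAIP3 in GENCODE v29, 95 are shared with the antisense gene WAKMAR2, which averaged 0.453 FPKM, and whether counting used strand is not given in the sources used here. The means ran siNC, EGF, control, almonertinib and siEGFR, and only control and almonertinib were separate neighbours.

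Among the subunits, NFKB1 (ENSG00000109320) encodes the precursor of a DNA-binding subunit of the classical dimer. It was at 5.39, 5.30 and 5.46 FPKM with almonertinib, 6.88, 7.04 and 6.96 FPKM with EGF and 6.08, 6.81 and 6.36 FPKM in control. Almonertinib libraries lay below all others, with a fall of 0.22 on the log2 scale (SE 0.05, limma adjusted p = 0.0053). With EGF the gene was not called (log2 change 0.10, SE 0.05, limma adjusted p = 0.091), although the EGF libraries lay above control, and it was called without control replicate 2 (0.032). It was at 6.39, 6.28 and 6.34 FPKM in siEGFR, against 7.39, 7.01 and 6.87 FPKM in siNC. Those groups did not overlap, but the change of -0.14 (SE 0.05) was not called (limma adjusted p = 0.13). NFKB1 was called lower when the siEGFR and siNC libraries were fitted alone (limma adjusted p = 0.032). The means ran siNC, EGF, control, siEGFR and almonertinib, with siNC overlapping EGF and control overlapping siEGFR.

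NFKB2 (ENSG00000077150), whose product is the precursor of the second branch, was at 18.7, 19.8 and 17.2 FPKM with almonertinib, 13.6, 16.5 and 14.9 FPKM with EGF and 13.4, 16.1 and 16.4 FPKM in control. Almonertinib libraries were the highest of the 15, and EGF and control overlapped. NFKB2 rose with almonertinib (log2 change 0.27, SE 0.08, limma adjusted p = 0.028) and was not called with EGF (log2 change -0.03, SE 0.08, limma adjusted p = 0.82). The almonertinib call was lost without control replicate 1 (log2 change 0.18), almonertinib replicate 1 or almonertinib replicate 2, with limma adjusted p of 0.12, 0.067 and 0.11. It was at 9.02, 9.31 and 9.04 FPKM in siEGFR, against 10.9, 11.8 and 10.8 FPKM in siNC. The groups were separate, but the change of -0.26 (SE 0.08) was not called (limma adjusted p = 0.096). NFKB2 was called lower when the siEGFR and siNC libraries were fitted alone. Means ran almonertinib, control, EGF, siNC and siEGFR, and control and EGF were the overlapping neighbours.

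RELB (ENSG00000104856), the partner of the processed NFKB2 product, was at 4.92, 5.09 and 4.20 FPKM with almonertinib, 6.46, 7.78 and 7.02 FPKM with EGF and 4.38, 4.76 and 5.23 FPKM in control. EGF libraries lay above the rest, and RELB rose with EGF to 148% of the control mean (log2 change 0.48, SE 0.08, limma adjusted p = 0.00033). Almonertinib and control overlapped, with a log2 change of -0.01 (SE 0.08, limma adjusted p = 0.91). In siEGFR it was at 2.56, 2.96 and 2.79 FPKM, against 4.09, 3.63 and 3.84 FPKM in siNC. Every siEGFR library was lower, and RELB fell by 0.36 on the log2 scale (SE 0.08, limma adjusted p = 0.021). That call was lost without siEGFR replicate 1 or 3 or siNC replicate 1 or 3, where the limma adjusted p was 0.070 to 0.10. It was past the threshold in 8 of 13 alternatives. Means ran EGF, control, almonertinib, siNC and siEGFR, with control and almonertinib overlapping.

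ICAM1 (ENSG00000090339), a cell-surface ligand of leukocyte integrins and a common readout of NF-kB activity, had the largest rise of the 9 tested genes with EGF on the log2(FPKM + 1) scale, while NFKBIE, whose change the added 1 shrinks more, rose further as a ratio of means. ICAM1 was at 29.2, 27.5 and 23.9 FPKM with almonertinib, 55.3, 58.1 and 52.8 FPKM with EGF and 27.1, 30.0 and 27.0 FPKM in control. EGF libraries stood clear of all others, while almonertinib and control overlapped. ICAM1 rose with EGF to 198% of the control mean (log2 change 0.96, SE 0.07, limma adjusted p = 1.8e-07), and was not called with almonertinib (log2 change -0.06, SE 0.07, limma adjusted p = 0.51). The siEGFR libraries were at 13.7, 13.0 and 13.1 FPKM, against 21.2, 22.6 and 21.7 FPKM in siNC. Every siEGFR library was below siNC, and ICAM1 fell by 0.68 on the log2 scale (SE 0.07, limma adjusted p = 7.4e-05). Means ran EGF, control, almonertinib, siNC and siEGFR, with an overlap only between control and almonertinib. In GENCODE v29, 815 of the 3706 exon bases of ICAM1 are shared with ICAM4-AS1 and 61 with LIMASI on the other strand, which averaged 0.013 and 0.027 FPKM.

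TNFAIP2 (ENSG00000185215), a TNF-inducible gene whose protein takes part in the formation of membrane nanotubes, was the most abundant of the 10 per length in every group but EGF. It was at 70.9, 69.8 and 60.2 FPKM with almonertinib, 41.3, 44.3 and 40.1 FPKM with EGF and 73.3, 75.2 and 77.8 FPKM in control. The 3 groups were separate, with EGF lowest of all 5 groups. TNFAIP2 fell with EGF to 55.5% of the control mean (log2 change -0.83, SE 0.06, limma adjusted p = 2.0e-07), the opposite direction to the other 5 genes called with EGF. With almonertinib it was not called (log2 change -0.17, SE 0.06, limma adjusted p = 0.052), but was so without almonertinib replicate 1 (0.034). It was at 49.4, 47.2 and 47.6 FPKM in siEGFR, against 52.3, 53.2 and 53.1 FPKM in siNC. The groups were separate, with a log2 change of -0.13 (SE 0.06) that was not called (limma adjusted p = 0.29). TNFAIP2 was called lower when the siEGFR and siNC libraries were fitted alone (limma adjusted p = 0.015). No neighbouring groups overlapped in the order control, almonertinib, siNC, siEGFR and EGF.

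CXCL1 (ENSG00000163739), a chemokine that attracts neutrophils, was at 1.68, 1.26 and 1.31 FPKM with almonertinib, 2.33, 1.58 and 2.15 FPKM with EGF and 2.23, 2.05 and 1.96 FPKM in control. All almonertinib libraries were below control, while EGF overlapped both. CXCL1 fell by 0.35 with almonertinib (SE 0.10, limma adjusted p = 0.018), a call that rests on 36 to 64 reads per library, and EGF gave a log2 change of -0.03 (SE 0.10, limma adjusted p = 0.80). The almonertinib call was lost without control replicate 1 or almonertinib replicate 2 (limma adjusted p = 0.063 and 0.074), and without both control replicate 1 and almonertinib replicate 3 (log2 change -0.29, limma adjusted p = 0.10). The siEGFR libraries, at 2.44, 2.19 and 2.14 FPKM, overlapped those of siNC, at 2.26, 1.95 and 1.83 FPKM, with a log2 change of 0.11 (SE 0.10, limma adjusted p = 0.66). The means ran siEGFR, control, EGF, siNC and almonertinib, and almonertinib alone did not overlap its neighbour.

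BIRC3 (ENSG00000023445) encodes cIAP2, a ubiquitin ligase that protects cells from death receptor signals, and was below 1 FPKM in every library, with 32 to 193 reads. It was at 0.22, 0.24 and 0.36 FPKM with almonertinib, 0.78, 0.61 and 0.82 FPKM with EGF and 0.82, 0.41 and 0.43 FPKM in control. Almonertinib libraries were below all control and EGF libraries, and control replicate 1 was as high as EGF. In siEGFR it was at 0.19, 0.19 and 0.21 FPKM, against 0.29, 0.29 and 0.36 FPKM in siNC, without overlap. With every gene above 0 in any library in the fit, BIRC3 was lower with almonertinib than with EGF (log2 change -0.45, SE 0.09, limma adjusted p = 0.0025). It was not called with almonertinib (log2 change -0.28, SE 0.09, limma adjusted p = 0.088) or EGF (log2 change 0.17, SE 0.09, limma adjusted p = 0.26) against control, or with siEGFR against siNC (log2 change -0.14, SE 0.09, limma adjusted p = 0.63).

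**Figure D2:**
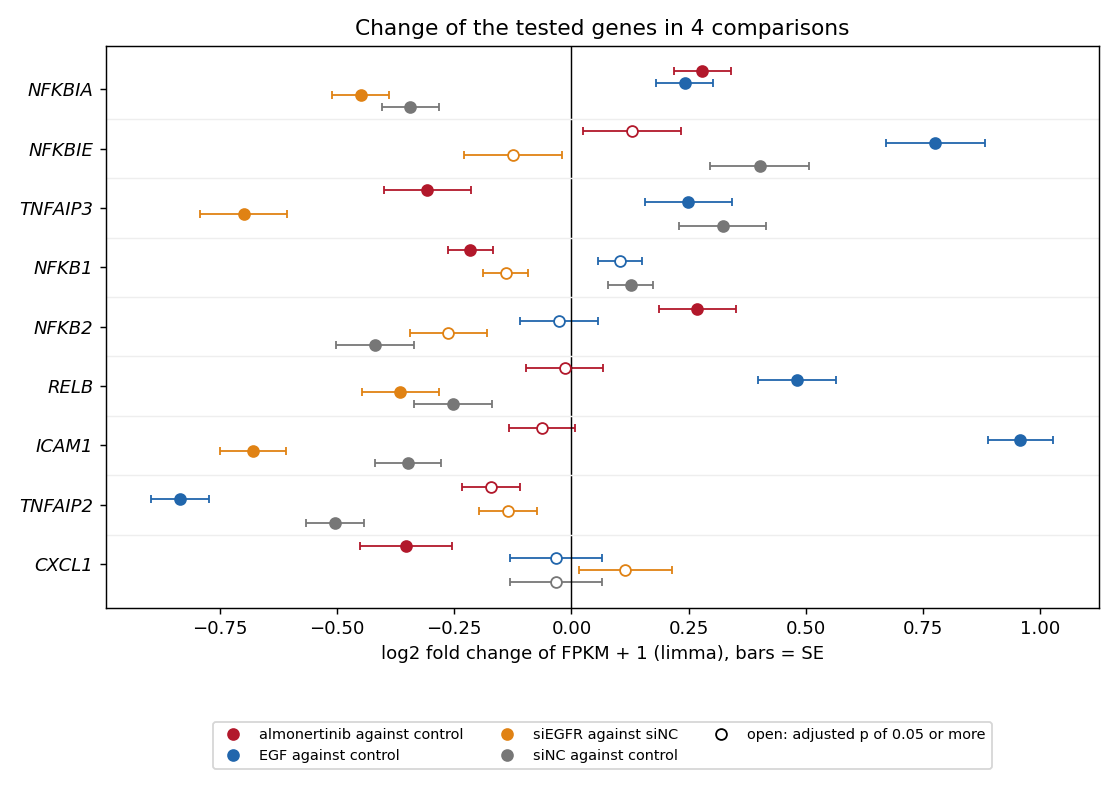
Log2 fold change of FPKM + 1 (x axis) of the 9 tested genes (rows) in almonertinib, EGF and siNC against control and in siEGFR against siNC (colours), with SE bars; filled points have a limma adjusted p under 0.05. On this scale ICAM1 has the largest rise, 0.96 with EGF, and TNFAIP2 the largest fall, -0.83 with EGF.

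All 5 calls with almonertinib rest on a spread estimated from the 15 libraries, and they were past the threshold in 13 of 14 alternatives for NFKBIA, 11 for NFKB1, 9 for CXCL1 and 8 each for TNFAIP3 and NFKB2. When the 6 almonertinib and control libraries were fitted alone, none of the 9 genes was called by limma (0 of 9), with adjusted p of 0.12 for NFKBIA, 0.18 for TNFAIP3, 0.15 for NFKB1, 0.16 for NFKB2 and 0.096 for CXCL1. In the same 6-library fit with EGF, 3 genes rose and TNFAIP2 fell, and NFKBIA had a limma adjusted p of 0.066. Over all 14999 tested genes, these fits called 399 higher and 458 lower with almonertinib, and 2558 and 3239 with EGF. The siEGFR and siNC libraries fitted alone gave 1617 higher and 1463 lower. The order of almonertinib and siEGFR by genes called therefore depends on the fit.

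Set directly against EGF, almonertinib gave 6 lower genes (NFKBIE, TNFAIP3, NFKB1, RELB, ICAM1 and CXCL1) and 2 higher ones (TNFAIP2 and NFKB2), beside 62.6% of all tested genes called (30.0% higher, 32.6% lower). The libraries were separate for 8 of the 9, against 61.7% of all genes. ICAM1 was lower with almonertinib (log2 change -1.02, SE 0.07, limma adjusted p = 4.2e-08) and TNFAIP2 higher (log2 change 0.66, SE 0.06, limma adjusted p = 8.0e-07). NFKBIE changed by -0.65 (SE 0.11, limma adjusted p = 0.00014) and TNFAIP3 by -0.56 (SE 0.09, limma adjusted p = 0.00016) on the log2(FPKM + 1) scale, where the added 1 understates both. The call of CXCL1 was lost without almonertinib replicate 2 or EGF replicate 1 (limma adjusted p = 0.052 and 0.063). It was past the threshold in 11 of 14 alternatives, and that of NFKB2 in 12. The median over the 9 genes was -0.32, against -0.03 over all tested genes.

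Almonertinib blocks EGFR and the siRNA lowers it, and the 2 comparisons share no library, so their difference was tested as an interaction in limma. It was called for 4 of the 9 genes, beside 13.7% of all tested genes (5.95% positive, 7.71% negative). NFKBIA rose with almonertinib and fell with siEGFR, and the difference of 0.73 (SE 0.09) passed the test (limma adjusted p = 0.0002). ICAM1 was not called with almonertinib and fell with siEGFR, a difference of 0.62 (SE 0.10, limma adjusted p = 0.0015). NFKB2 rose with almonertinib and was lower in all 3 siEGFR libraries, a difference of 0.53 (SE 0.12, limma adjusted p = 0.010). CXCL1 gave a difference of -0.47 (SE 0.14, limma adjusted p = 0.043), which was past the threshold in 7 of 20 alternatives and was lost on leaving out any 1 library other than control replicate 2, almonertinib replicate 1 or siNC replicate 1 (limma adjusted p = 0.057 to 0.10). NFKBIA, ICAM1 and NFKB2 were past it in 20 of 20 alternatives. TNFAIP3 fell with both, and the difference of 0.39 (SE 0.13) was not called (limma adjusted p = 0.065), nor was that of RELB at 0.35 (SE 0.12, limma adjusted p = 0.065). TNFAIP3 was called without control replicate 1 (0.011), and TNFAIP3 (0.034) and RELB (0.023) without almonertinib replicate 3. The remaining ones, NFKBIE, NFKB1 and TNFAIP2, gave 0.25 (SE 0.15), -0.08 (SE 0.07) and -0.04 (SE 0.09), with limma adjusted p of 0.27, 0.47 and 0.80.

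**Figure D3:**
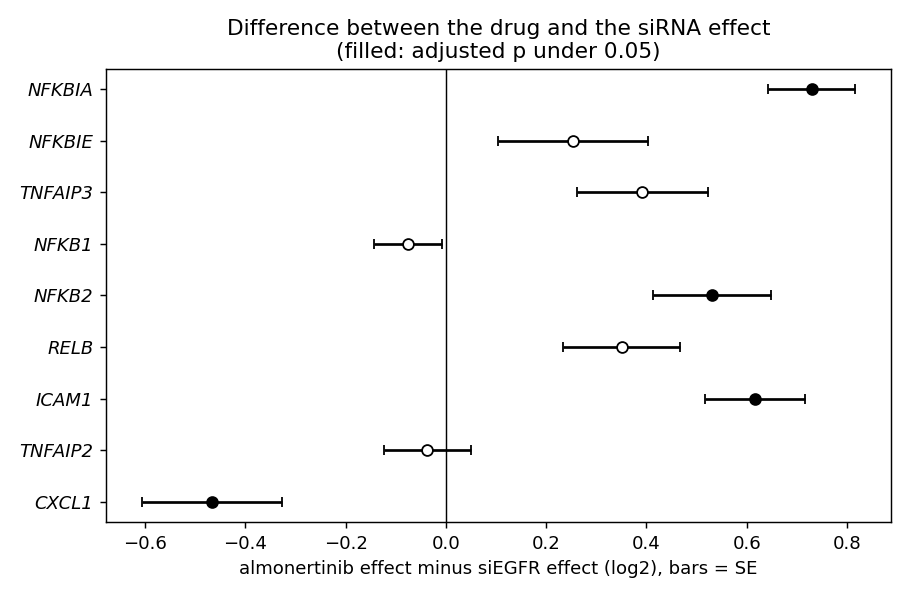
Difference between the almonertinib change against control and the siEGFR change against siNC (log2 scale, x axis) for the 9 tested genes (rows), with SE bars; filled points have a limma adjusted p under 0.05. NFKBIA, ICAM1 and NFKB2 lie at 0.73, 0.62 and 0.53, and CXCL1 at -0.47.

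Control siRNA cells also differed from control cells: 8 of the 9 genes were called between siNC and control, beside 66.0% of all tested genes (34.4% higher, 31.6% lower), and 8 of the 9 had separate libraries, against 68.8% of all genes. NFKBIE (log2 change 0.40, SE 0.11, limma adjusted p = 0.0045), TNFAIP3 (0.32, SE 0.09, limma adjusted p = 0.0078) and NFKB1 (0.13, SE 0.05, limma adjusted p = 0.033) were higher in siNC. TNFAIP2 (-0.50, SE 0.06, limma adjusted p = 9.4e-06), NFKB2 (-0.42, SE 0.08, limma adjusted p = 0.00063), ICAM1 (-0.35, SE 0.07, limma adjusted p = 0.00069), NFKBIA (-0.34, SE 0.06, limma adjusted p = 0.00025) and RELB (-0.25, SE 0.08, limma adjusted p = 0.016) were lower in siNC. CXCL1 was not called (-0.03, SE 0.10, limma adjusted p = 0.79). The call of NFKB1 was lost without control replicate 1 or 3 or siNC replicate 1 or 2 (limma adjusted p = 0.059 to 0.13), and that of RELB without control replicate 3 (0.075) or siNC replicate 2 (0.062). NFKB1 was past the threshold in 5 of 14 alternatives and RELB in 10. The siEGFR group was set against siNC alone, and was not tested against control. CD14 moved with the same comparison, at 6.67 to 7.20 FPKM in siNC against 30.1 to 39.9 FPKM in control.

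To place the 10 genes in their pathway, 75 further NF-kB genes were listed by role, of which 59 passed the filter. With almonertinib 5 rose and 17 fell, beside 30.1% of all tested genes called, and with EGF 24 rose and 12 fell, beside 49.3%. With siEGFR none rose and 6 fell by limma, beside 5.46% of all tested genes, where 1 was higher and 18 lower at an unadjusted p under 0.05, and 0 higher and 11 lower by limma-voom. Their median log2 changes were -0.14, 0.09 and -0.11 in that order, against -0.06, -0.04 and 0.01 over all tested genes. The counts by role below stand beside the same 30.1%, 49.3% and 5.46%, and with 4 to 19 genes a role they are descriptions, not results about a role. RELA, the main transactivating subunit, was called in none of these comparisons and lay between 14.8 and 16.5 FPKM in every library.

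TNFRSF12A, the receptor of the cytokine TWEAK, was at 14.9, 14.9 and 12.7 FPKM with almonertinib, 89.0, 111 and 95.9 FPKM with EGF and 34.7, 44.8 and 41.2 FPKM in control. The 3 groups were far apart: it fell with almonertinib (log2 change -1.44, SE 0.10, limma adjusted p = 9.5e-07) and rose with EGF (log2 change 1.28, SE 0.10, limma adjusted p = 2.8e-07). Of the 6 tested receptors, 1 fell and none rose with almonertinib, 3 rose and 2 fell with EGF, and 1 fell with siEGFR (beside 30.1%, 49.3% and 5.46% of all tested genes called). The receptor that fell with siEGFR was the TNF receptor TNFRSF1A (log2 change -0.31, SE 0.06, limma adjusted p = 0.0065). Of the 6 tested ligands and cytokines, 1 rose and 3 fell with almonertinib, 3 rose and none fell with EGF, and 1 fell with siEGFR. LIF, a cytokine of the IL6 family, rose with EGF (log2 change 1.19, SE 0.07, limma adjusted p = 1.6e-08) and fell with siEGFR (-0.32, SE 0.07, limma adjusted p = 0.013). IL6 rose with EGF as well (log2 change 0.94, SE 0.09, limma adjusted p = 3.0e-06).

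Of the 19 tested adaptors and kinases, 2 rose and 4 fell with almonertinib, 6 rose and 5 fell with EGF (beside 30.1% and 49.3% of all tested genes called), and none was called with siEGFR by limma (0 higher and 2 lower at an unadjusted p under 0.05). IRAK1, a kinase of the IL1 and Toll-like receptors, fell with almonertinib (log2 change -0.43, SE 0.07, limma adjusted p = 0.00069) and rose with EGF (0.80, SE 0.07, limma adjusted p = 6.9e-07). Among the 5 further subunits and inhibitors, 1 rose with almonertinib, 1 rose and 2 fell with EGF, and none was called with siEGFR by limma (1 lower at an unadjusted p under 0.05). The 8 genes listed as restraining enzymes and adaptors held no limma call with almonertinib or siEGFR (2 and 1 lower at an unadjusted p under 0.05) and 2 rises with EGF.

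All 4 tested chemokines besides CXCL1 fell with almonertinib. With EGF 2 rose and 1 fell, and with siEGFR 2 fell (beside 30.1%, 49.3% and 5.46% of all tested genes called). CXCL2 averaged 70.8% of the control mean with EGF, and CCL2 86.3%. CX3CL1, a membrane-bound chemokine, was at 8.16, 8.57 and 7.85 FPKM with almonertinib, against 14.8, 15.3 and 14.5 FPKM in control (log2 change -0.79, SE 0.05, limma adjusted p = 6.6e-07). It rose with EGF (0.29, SE 0.05, limma adjusted p = 0.00042) and fell with siEGFR (-0.25, SE 0.05, limma adjusted p = 0.012). CXCL2, a close relative of CXCL1, was at 2.40, 2.36 and 2.71 FPKM in siEGFR, against 4.72, 4.15 and 4.63 FPKM in siNC. It fell there by 0.66 on the log2 scale (SE 0.10, limma adjusted p = 0.0014), where CXCL1 was not called. CXCL8, chosen after its values were seen, fell by 0.82 with almonertinib (SE 0.17, limma adjusted p = 0.0030) and rose by 1.52 with EGF (SE 0.17, limma adjusted p = 6.9e-06). Its fall rests on 9, 12 and 31 reads with almonertinib, against 106, 44 and 45 in control. The highest counts of these groups came from almonertinib replicate 3 and control replicate 1, the libraries farthest from their own replicates.

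Of the 11 other tested targets, 1 rose and 5 fell with almonertinib, 7 rose and 2 fell with EGF, and 2 fell with siEGFR (beside 30.1%, 49.3% and 5.46% of all tested genes called). BCL2L1, which encodes the survival protein BCL-XL, was at 6.78, 7.15 and 6.86 FPKM with almonertinib, 21.9, 23.9 and 23.1 FPKM with EGF and 9.32, 10.9 and 9.64 FPKM in control. It fell with almonertinib (log2 change -0.46, SE 0.06, limma adjusted p = 0.0001) and rose with EGF (1.13, SE 0.06, limma adjusted p = 5.2e-09), without overlap in either case. PLAU, the urokinase protease, fell with almonertinib (-0.54, SE 0.06, limma adjusted p = 3.3e-05) and with siEGFR (-0.51, SE 0.06, limma adjusted p = 0.00016). GADD45B, a stress-inducible gene, rose with almonertinib (0.68, SE 0.11, limma adjusted p = 0.00063). PTGS2, the inducible cyclooxygenase, fell with siEGFR (-0.34, SE 0.06, limma adjusted p = 0.0055). In siNC against control, 20 of the 59 were higher and 22 lower, beside 66.0% of all tested genes called (34.4% higher, 31.6% lower). The smallest p were those of PLAU (2.23, SE 0.06, limma adjusted p = 7.3e-12), PTGS2 (1.49, SE 0.06, limma adjusted p = 3.3e-10), TNFRSF12A (1.70, SE 0.10, limma adjusted p = 6.8e-09), IRAK1 (1.10, SE 0.07, limma adjusted p = 1.3e-08) and the chemokine CCL2 (-1.23, SE 0.09, limma adjusted p = 4.8e-08).

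**Figure D4:**
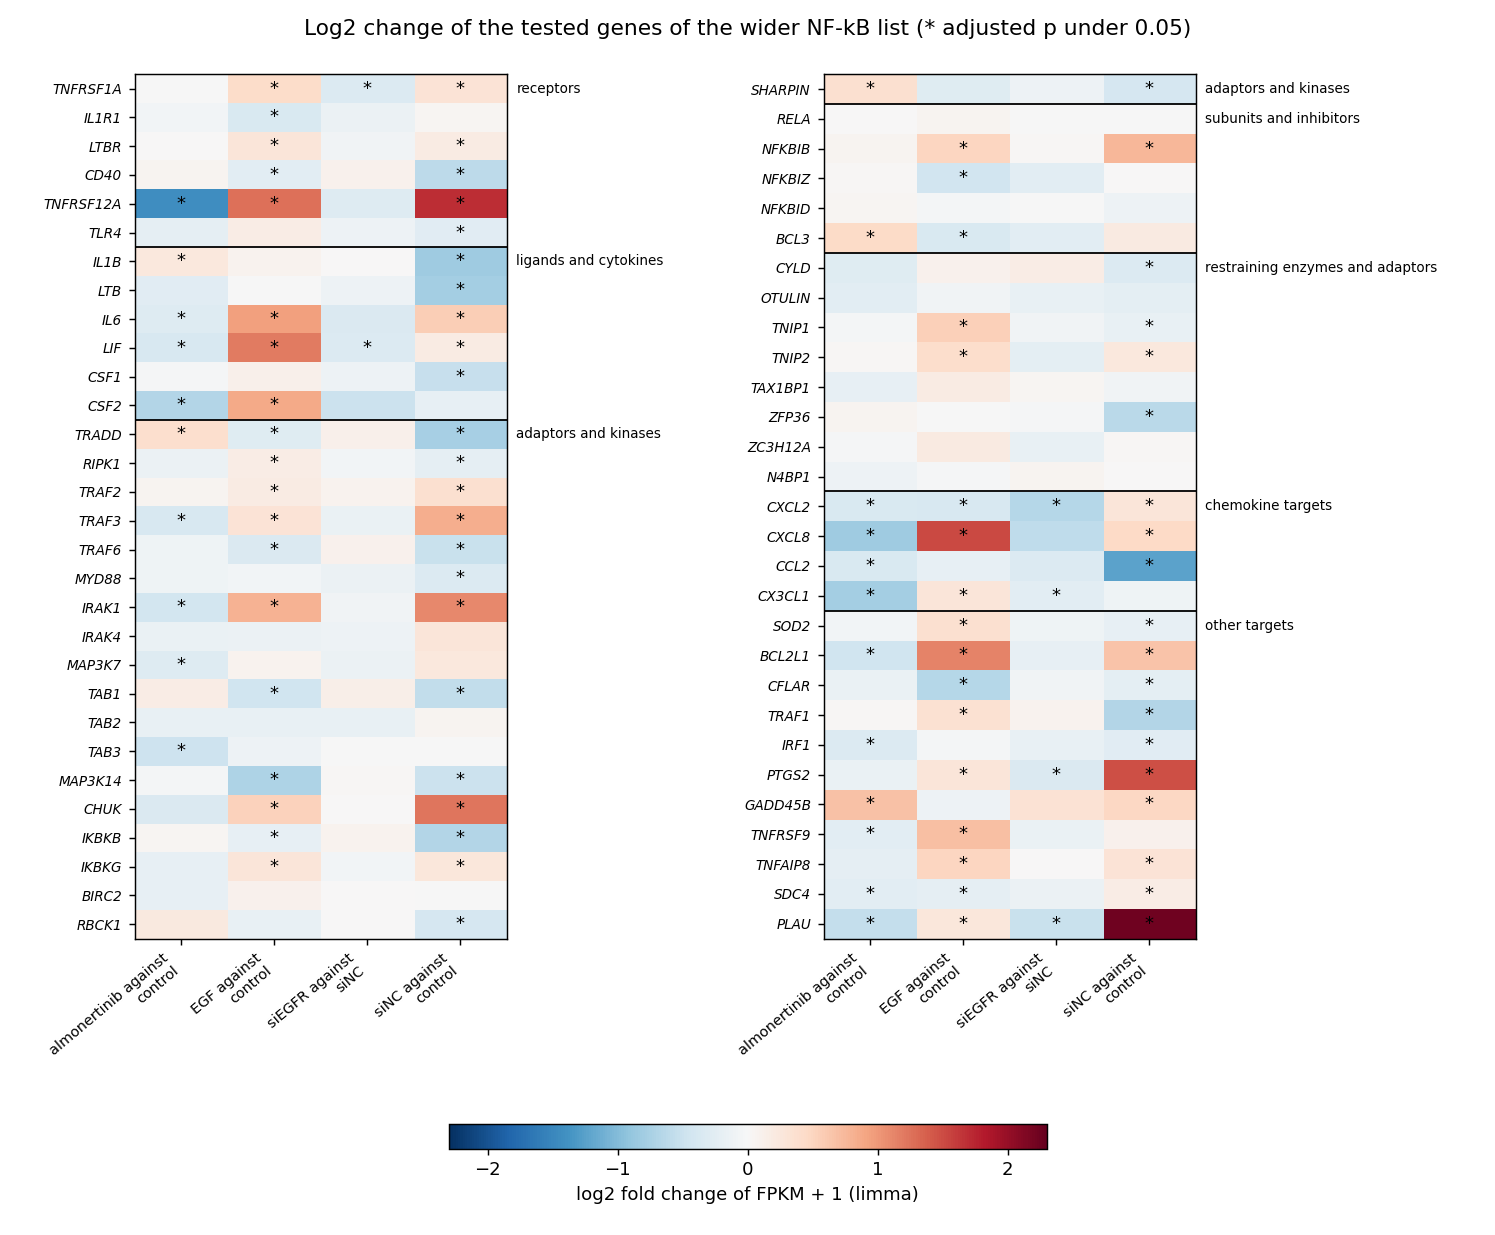
Log2 fold change of FPKM + 1 (colour) of the 59 tested genes of the wider list (rows, grouped by role) in almonertinib, EGF and siNC against control and siEGFR against siNC (columns); a star marks a limma adjusted p under 0.05. TNFRSF12A falls by 1.44 with almonertinib and rises by 1.28 with EGF, and siEGFR holds 6 stars.

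Genes with the most similar profiles over the 15 libraries were found by the root mean square difference of mean-centred log2(FPKM + 1) values. For NFKBIA these were TRIM8 (0.12), SLC25A43 (0.13) and ECM1 (0.13), and for NFKB2 CCDC92 (0.08), TOMM7 (0.08) and PTK2B (0.09). S100A16 (0.20), SREBF2 (0.23) and KYNU (0.24) were nearest to ICAM1, and ZFX (0.08), PPP3CA (0.08) and DCTN5 (0.09) to CXCL1. The profiles themselves had SDs of 0.42 for NFKBIA, 0.36 for NFKB2, 0.67 for ICAM1 and 0.19 for CXCL1. Distances to different genes are therefore not comparable. S100A16, for one, averaged 151 FPKM with almonertinib, 381 with EGF, 183 in control, 113 in siEGFR and 142 in siNC. The libraries share groups and depth, and the measure favours genes with small changes, so these are descriptions over 8648 or 8649 candidates.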

How the data were processed

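Messenger RNA from NCI-H1975 cells was enriched with oligo(dT) beads and sequenced paired-end, per the labels' protocols. The authors deposited FPKM for 61248 loci in 15 libraries; HISAT2, featureCounts, DESeq2 and the build hg19 appear, without version or role, in the submitters' processing notes. Symbols came from a gene list by Ensembl ID (60463 matches) and GENCODE v29 (124).

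A linear model on log2(FPKM + 1) in limma 3.58.1 (R 4.3.3; intensity trend, robust moderation, 1 coefficient per group, 10 residual degrees of freedom) took the genes that reached 1 FPKM in 3 or more of 15 libraries. Tests were two-sided, with Benjamini-Hochberg adjustment within a comparison over 14999 genes. Values of a gene step by what 1 read is worth, and all 61248 loci gave whole reads within 0.01, so limma-voom on those reads was an alternative. Recovery was tested on simulated data, where 14998 of 14999 genes came back exactly, and the model was checked in the same way. No libraries agreed within sampling noise, and replicates differed less in some groups than in others. The mean chi-square per gene between replicate read counts was 1.51 to 3.95 in siEGFR and siNC. In control, almonertinib and EGF it was 6.60 to 39.2. The main fit uses 1 spread per gene for all 15 libraries, so this difference between groups is not modelled. Replicates number 3 per group, so an exact test of a single gene cannot go below p = 0.10, and the model across all genes was used.

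The genes, the wider list and the tests were chosen with earlier results of these data known. Besides the 10 genes and EGFR, the text names the 5 genes of the wider list with the smallest p past the threshold in each of 4 comparisons, and 3 genes of most similar profile for NFKBIA, NFKB2, ICAM1 and CXCL1, among those averaging at least 2 FPKM. RELA and CXCL8 fall outside this rule and were chosen after their values were seen. Alternatives used a pseudocount of 0.1, no filter, TPM or median-ratio scaling, the compared groups alone or a replicate block, or left libraries out. Python 3.11.15, pandas 2.3.3, numpy 2.4.6, matplotlib 3.10.9 and the R reader data.table (version 1.17.8) were used. Promoter sequences are on GRCh38.p14 and were not joined to the hg19 values by position. No library was left out of the reported values.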

Additional observations from a re-analysis of the deposited data

Results flagged for a closer look

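These 4 results stood out because the same gene changed differently with the EGFR inhibitor and with the EGFR siRNA, by a test of the difference itself. NFKBIA differed by 0.73 (SE 0.09, limma adjusted p = 0.0002), at 122% of the control mean with almonertinib and 72.0% of the siNC mean with siEGFR. ICAM1 differed by 0.62 (SE 0.10, limma adjusted p = 0.0015), at 95.8% of control with almonertinib and 60.7% of siNC with siEGFR. NFKB2 differed by 0.53 (SE 0.12, limma adjusted p = 0.010), at 122% of control with almonertinib and 81.8% of siNC with siEGFR. CXCL1 differed by -0.47 (SE 0.14, limma adjusted p = 0.043), at 68.1% of control with almonertinib and 112% of siNC with siEGFR. It was past the threshold in 7 of 20 alternatives, and was lost on leaving out any 1 of the 12 libraries in the test other than control replicate 2, almonertinib replicate 1 or siNC replicate 1, while the other 3 genes were past it in 20 of 20.

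EGFR averaged 29.1 FPKM in siEGFR, against 49.6 FPKM in siNC. The labels give no dose or time for either treatment, so dose and time cannot be told apart from the kind of treatment. The reference groups, control and siNC, also differed. EGFR averaged 24.4 FPKM in control, and limma called 66.0% of all tested genes between siNC and control. NFKBIA, ICAM1 and NFKB2 were called lower in siNC, at 77.8%, 77.7% and 73% of the control mean, and CXCL1 was not called. The part of these reference groups in the flagged results was not tested.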

How the results depend on the processing

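Every comparison was recomputed with a pseudocount of 0.1, without the filter on low values, with TPM or median-ratio scaling, with the compared groups alone, with limma-voom on recovered reads, with a replicate block and with each library left out; a fit without control 1 and almonertinib 3 was chosen after seeing the data. Counts of the 9 genes and of the wider list are given where they moved by more than 1.5 times, and the cause was not tested unless the setting itself gives it.

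For almonertinib against control (2 of the 9 genes higher and 3 lower; wider list 5 higher and 17 lower), the unfiltered fit gave 1 higher, 1 lower and 3 higher in the wider list, with more genes tested. TPM gave 1 higher, and 2 higher in the wider list. The 6 libraries alone gave 0 higher and 0 lower, with 1 higher and 5 lower in the wider list. Without control 1 and almonertinib 3, 1 was lower. For EGF against control (5 higher; wider list 12 lower), the 6 libraries alone gave 3 higher and 7 lower in the wider list, and median-ratio scaling and limma-voom each gave 7 lower in the wider list. For siEGFR against siNC (4 lower; wider list 0 higher and 6 lower), the 6 libraries alone gave 7 lower, with 3 higher and 20 lower in the wider list, and limma-voom 11 lower in the wider list. For almonertinib against EGF (2 higher), median-ratio scaling and limma-voom each gave 1 higher. For the almonertinib effect minus the siEGFR effect (3 higher and 1 lower; wider list 2 higher and 4 lower), the unfiltered fit gave 0 lower, with 0 higher and 2 lower in the wider list. TPM gave 0 higher in the wider list, median-ratio scaling and limma-voom each gave 0 lower, with 2 lower in the wider list, and the fit without control 1 and almonertinib 3 gave 5 higher, 0 lower and 4 higher in the wider list.

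With the replicate number as a block, siEGFR against siNC gave 1 higher and 11 lower in the wider list, and the almonertinib effect minus the siEGFR effect 6 higher; no other count moved by more than 1.5 times. The numbers pair no samples by the labels, and the correlations of same-numbered deviations ran from -0.17 to 0.60.

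Leaving out 1 library gave, for the 9 genes, 1 to 2 higher and 1 to 4 lower with almonertinib, 4 to 5 higher with EGF, 3 to 4 lower with siEGFR, 2 to 3 higher and 4 to 5 lower in siNC, 5 to 6 lower in almonertinib against EGF, and 3 to 5 higher and 0 to 1 lower for the difference of effects. For the wider list the ranges were 1 to 7 higher and 12 to 20 lower with almonertinib, 8 to 15 lower with EGF, 4 to 7 lower with siEGFR, and 0 to 4 higher and 2 to 5 lower for the difference of effects. With almonertinib, the count of higher genes was 1 without control replicate 1 or almonertinib replicate 1 or 2, and that of lower genes 1 without control replicate 1 or almonertinib replicate 2.

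Signs turned only for changes that were not called. With almonertinib, ICAM1 was 0.0222 under median-ratio scaling, and RELB 0.0585 under it, 0.0527 with limma-voom and 0.0039 without control 1 and almonertinib 3. With EGF, median-ratio scaling gave 0.0782 for NFKB2 and 0.04 for CXCL1, limma-voom 0.0919 and 0.072, and the fit without the 2 libraries 0.0014 for CXCL1. CXCL1 in siNC against control was 0.0012 under TPM and 0.0023 without the 2 libraries. NFKBIA in almonertinib against EGF was -0.0448 under TPM and -0.0144 with limma-voom. For the difference of effects, TNFAIP2 was 0.0718 under median-ratio scaling, 0.073 with limma-voom and 0.0163 without the 2 libraries, and NFKB1 0.0185 and 0.0228 under the first 2 of these. Leaving out 1 library gave -0.1229 to 0.0161 for ICAM1 and -0.0657 to 0.0552 for RELB with almonertinib, -0.1136 to 0.0377 for NFKB2 and -0.1078 to 0.0758 for CXCL1 with EGF, -0.0903 to 0.0111 for CXCL1 in siNC, and -0.0795 to 0.0367 for TNFAIP2 in the difference of effects.

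TPM moved the median of all genes for the difference of effects to -0.18, against -0.07 as deposited, and limma-voom moved that of EGF against control to 0.07, against -0.04. Called genes were higher in 40.2% of cases with almonertinib as deposited, in 22.0% under TPM and in 50.4% under median ratios, and with EGF in 44.7%, against 57.7% under median ratios and 58.4% with limma-voom. With siEGFR the share was 41.5%, against 52.5% in the fit of the 6 libraries alone and 26.0% with limma-voom, and for the difference of effects 43.5%, against 24.3% under TPM and 56.3% under median ratios. Depth limits BIRC3 and CXCL1 most, with 32 to 193 and 36 to 92 reads per library.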
